A study of Homo sapiens with 24 samples.

Results

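PCGEM1, LINC00844, LINC00920, CTBP1-AS, NEAT1 and MALAT1 are long noncoding RNA genes that are known from the prostate or from bodies inside the cell nucleus. They were found by gene symbol among the array's annotated probe sets, which gave 6 of 19840 named genes and 26 of 54675 probe sets: 2 for PCGEM1, 1 each for LINC00844, LINC00920 and CTBP1-AS, 9 for NEAT1 and 12 for MALAT1. The 6 genes had been chosen with their within-line changes after androgen and after knockdown already known, so those changes are given as a description with no p-value. A count of members past the fit's threshold only places them among all probe sets and supports nothing. Probe sets of 1 gene read the same RNA and are not independent members. A total of 25 member probe sets passed the filter on low values in VCaP and 23 in LNCaP. The 3 that failed it in at least 1 line were PCGEM1 234515_at, which failed in both, and NEAT1 220983_s_at and 239269_at, which failed in LNCaP. The filter asked for a value above the array median on at least 3 of a line's 12 arrays. LINC00920, NEAT1 220983_s_at and 239269_at in VCaP, and LINC00844 in LNCaP, passed it through DHT arrays alone. NEAT1 214657_s_at in LNCaP would have failed it on the DHT arrays. Their DHT differences were part of what let them in and are given as values with no test. In VCaP, LINC00920 and 220983_s_at passed through siControl DHT arrays alone. The same therefore holds for their knockdown changes.

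Total RNA from 2 prostate cancer cell lines was hybridised to 24 Affymetrix HG-U133 Plus 2.0 arrays, in 8 groups of 3 biological replicates. Cells received RNA interference, were kept without hormone for 2 days from 24 h later, and were then given 10 nM of the androgen dihydrotestosterone (DHT) or the vehicle ethanol (EtOH) for 16 h. VCaP, a line known to carry a fusion of the androgen-driven gene TMPRSS2 to the ETS factor gene ERG, was studied as siERG DHT, siControl DHT, siERG EtOH and siControl EtOH. LNCaP, a line known to overexpress the ETS factor gene ETV1, was studied as shETV1 DHT, shControl DHT, shETV1 EtOH and shControl EtOH. The LNCaP control is shControl in the sample titles and siControl in the treatment labels; it is called shControl here. Each knockdown was made in 1 line, so a difference between siERG and shETV1 cells is also a difference between lines and reagents, and the siRNA and shRNA sequences were not given in the sources used here.

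Long noncoding RNAs are transcribed and processed much like mRNAs but are not translated, and many act in the nucleus. PCGEM1 is a prostate-restricted transcript known for raised levels in prostate cancer, LINC00844 has been described as an androgen receptor target in prostate cells, and LINC00920 as a target of ERG. CTBP1-AS is transcribed from the CTBP1 locus, which encodes a transcriptional corepressor, and is known as an androgen-induced antisense RNA that acts with the RNA-binding protein SFPQ. NEAT1 is the RNA scaffold of paraspeckles, nuclear bodies built with SFPQ, NONO and related proteins. MALAT1, its neighbour on chromosome 11, is an abundant RNA of nuclear speckles, where splicing factors gather.

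The promoters of LINC00844, PCGEM1 and LINC00920 are shown because their RNAs moved with DHT or with knockdown of an ETS factor, so that matches to androgen receptor and ETS factor motifs can be read beside the values. RefSeq promoter sequences of GRCh38.p14, 300 bases from 250 before to 50 after the annotated start on the plus strand, were matched for 4 of the 6 members, with 2 starts for MALAT1 and no entry for CTBP1-AS or NEAT1. Capitals mark matches to AGAACA, an arm of the androgen receptor element (TGTTCT on the other strand), in the first pair of sequences and to GGAAGT, the core of ETS factor sites (ACTTCC on the other strand), in the last.
LINC00844 (chr10:58999268-58999567): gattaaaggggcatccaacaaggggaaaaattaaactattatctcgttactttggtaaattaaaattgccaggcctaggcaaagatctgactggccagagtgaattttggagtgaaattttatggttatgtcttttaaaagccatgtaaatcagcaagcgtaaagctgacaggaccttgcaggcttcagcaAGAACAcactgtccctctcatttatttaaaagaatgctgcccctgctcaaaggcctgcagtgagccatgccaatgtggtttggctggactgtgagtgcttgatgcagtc
PCGEM1 (chr2:192749595-192749894): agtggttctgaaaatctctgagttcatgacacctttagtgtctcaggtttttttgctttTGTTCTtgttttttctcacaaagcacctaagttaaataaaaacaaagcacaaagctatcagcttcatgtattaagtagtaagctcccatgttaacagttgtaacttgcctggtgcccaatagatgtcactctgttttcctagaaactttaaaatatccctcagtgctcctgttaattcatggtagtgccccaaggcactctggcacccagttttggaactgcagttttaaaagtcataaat
LINC00920 (chr16:66408274-66408573): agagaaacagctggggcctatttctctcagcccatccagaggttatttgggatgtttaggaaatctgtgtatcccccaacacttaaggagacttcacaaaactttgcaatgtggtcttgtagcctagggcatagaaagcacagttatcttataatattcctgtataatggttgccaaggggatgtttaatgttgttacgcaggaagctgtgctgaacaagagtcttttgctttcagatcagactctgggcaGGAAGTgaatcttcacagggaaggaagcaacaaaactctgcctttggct
LINC00844 held AGAACA from 59 to 54 bases before its start, and PCGEM1 held TGTTCT from 191 to 186 bases before its start. LINC00920 held GGAAGT over the first 6 bases after its start and no AGAACA. Of the pair of MALAT1 promoters, chr11:65498795-65499094 held TGTTCT from 41 to 36 bases before its start and chr11:65497488-65497787 held none of the motifs. Such short matches are common: AGAACA was in 14.8% and GGAAGT in 22.8% of 35116 promoters of this length, and the full element, AGAACA followed after 3 bases by TGTTCT, was in 1 of them and in no member. The matches are descriptions of these letters, and binding was not measured here.

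Both knockdowns lowered their target on every array. ERG had intensities of 536 to 569 in siERG DHT cells against 1159.7 to 1204 in siControl DHT cells, and of 567 to 592 in siERG EtOH cells against 950.2 to 1115 in siControl EtOH cells, with log2 changes of −1.09 ± 0.06 and −0.82 ± 0.06 (SE, limma adjusted p = 6.46e-06 and 4.91e-05). ETV1 had intensities of 803 to 892 in shETV1 DHT cells against 1264 to 1326 in shControl DHT cells, and of 714 to 769 in shETV1 EtOH cells against 1029.8 to 1215 in shControl EtOH cells, with log2 changes of −0.62 ± 0.07 and −0.61 ± 0.07 (SE, limma adjusted p = 8.04e-04 and 9.58e-04). ERG and ETV1 mRNA were therefore reduced and not removed. All 8 prostate luminal markers with a probe set were above the array median on all 12 VCaP arrays and 7 of them on all 12 LNCaP arrays, and the defining basal markers KRT5 and KRT14 were above it on none. The summed luminal marker intensity was 33840 to 36107 in shETV1 DHT cells against 42269 to 43657 in shControl DHT cells, 12925 to 13310 in shETV1 EtOH cells against 14630 to 15458 in shControl EtOH cells, and 19770 to 20958 in siERG EtOH cells against 22832 to 23579 in siControl EtOH cells. The luminal sum was higher with DHT than with EtOH in knockdown and control cells of both lines. Single luminal markers did not all follow the sums. With DHT, 7 of the 8 rose and 1 fell past that threshold in both shETV1 and shControl cells (33.5% and 36.4% of all probe sets were past it). In both siERG and siControl cells 6 rose and 0 fell (38.4% and 39% of all). After ERG knockdown with EtOH, 1 rose and 4 fell (9.12% of all). In VCaP the luminal sum was 28493 to 32422 in siERG DHT cells and 31199 to 33346 in siControl DHT cells. The summed leukocyte marker intensity, in which LYZ was the marker above the array median on all VCaP arrays and the defining marker PTPRC was above it on none, was 223 to 278 in siERG DHT cells against 465 to 526 in siControl DHT cells. With EtOH it was 188 to 279.95 in siERG cells against 414 to 482 in siControl cells. The summed neuroendocrine marker intensity was 628 to 783 in siERG DHT cells against 825 to 1280.4 in siControl DHT cells. CHGA and INSM1 were above the array median on all VCaP arrays and 0 of 3 markers on any LNCaP array. The summed fibroblast marker intensity, in which COL1A1 was the 1 of 5 markers above the median on all arrays of either line, was 647 to 774 in siERG EtOH cells against 552 to 635 in siControl EtOH cells. It was also lower with DHT, at 387 to 447 in shETV1 DHT cells against 549 to 584 in shETV1 EtOH cells and at 385 to 421 in siERG DHT cells against 647 to 774 in siERG EtOH cells. The summed endothelial marker intensity, with the defining marker CDH5 above the median on no array, was 191 to 204 in shETV1 EtOH cells against 142 to 179 in shControl EtOH cells. With DHT it was lower, at 86 to 99 in shETV1 cells and 74 to 96 in shControl cells. In VCaP it was 72 to 125 in siControl DHT cells against 129 to 164 in siControl EtOH cells, and the siERG groups overlapped. The basal sum was 22.1 to 37.3 in siERG DHT cells against 43.0 to 55.5 in siControl DHT cells. The part of these markers in the results below was not tested. The RNA came from cell lines, so the sums are values of marker genes and not counts of leukocytes, fibroblasts or endothelial cells. In bulk RNA, fewer cells with a marker's RNA and less of it per cell cannot be told apart.

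The ratio of 3' to 5' GAPDH probe sets, a measure of RNA integrity, also moved with ERG knockdown: it was 1.02 to 1.04 in siERG DHT cells against 1.07 to 1.08 in siControl DHT cells, and 1.07 to 1.11 in siERG EtOH cells against 1.04 to 1.06 in siControl EtOH cells. It moved with DHT too, being lower in siERG DHT than in siERG EtOH cells and higher in siControl DHT than in siControl EtOH cells, with no overlap in either pair. The ACTB ratio was 2.49 to 3.06 in siERG DHT cells against 3.46 to 3.56 in siControl DHT cells. In LNCaP the GAPDH ratio was 1.067 to 1.085 in shETV1 DHT cells against 1.086 to 1.091 in shControl DHT cells, and the EtOH groups overlapped. Values from a fit that also held the log2 GAPDH ratio (the GAPDH covariate) are given beside the VCaP results of each gene's brightest probe set, and in LNCaP for PCGEM1 and NEAT1.

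PCGEM1 moved in opposite directions in the 2 lines, after knockdown and after DHT. Probe set 234529_at had intensities of 189, 162 and 175 in shETV1 DHT cells, 341, 353 and 356 in shControl DHT cells, 145, 133.4 and 122 in shETV1 EtOH cells and 303, 328 and 298 in shControl EtOH cells. No LNCaP groups overlapped, and the order from highest to lowest was shControl DHT, shControl EtOH, shETV1 DHT and shETV1 EtOH. On the scale of log2(intensity + 16), which understates the changes of dim probe sets, shETV1 cells were lower than shControl cells by a change of −0.94 ± 0.07 with DHT and −1.13 ± 0.07 with EtOH (SE). The DHT change was 0.36 ± 0.07 in shETV1 cells and 0.17 ± 0.07 in shControl cells (0.38 ± 0.06 and 0.10 ± 0.07 with the GAPDH covariate), so the ETV1 knockdown separated the LNCaP groups by more than DHT did.

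In VCaP, PCGEM1 was higher after ERG knockdown and lower after DHT. Its intensities were 169.5, 154 and 134 in siERG DHT cells, 114, 115 and 123 in siControl DHT cells, 234, 263 and 254 in siERG EtOH cells and 172, 152 and 162 in siControl EtOH cells. The siERG EtOH arrays were highest, the siControl DHT arrays lowest, and the siERG DHT and siControl EtOH arrays overlapped between them. The siERG minus siControl change was 0.33 ± 0.08 with DHT and 0.59 ± 0.08 with EtOH, or 0.28 ± 0.13 and 0.63 ± 0.13 with the GAPDH covariate (SE). The DHT change was −0.66 ± 0.08 in siERG cells and −0.41 ± 0.08 in siControl cells, or −0.74 ± 0.17 and −0.38 ± 0.10 with the GAPDH covariate. The second PCGEM1 probe set, 234515_at, lay below the array median on all 24 arrays, with group means of 14.1 to 22.8, and gives no reading of the gene.

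In LNCaP, LINC00844 had the largest log2 change with DHT of the members. In VCaP siControl cells the changes of LINC00920 and of NEAT1 227062_at, 234989_at, 239269_at and 225239_at were larger than that of LINC00844. In LNCaP its intensities were 527, 511 and 471 in shETV1 DHT cells, 739.6, 786 and 687 in shControl DHT cells, 24.8, 20.8 and 23.6 in shETV1 EtOH cells and 26.9, 27.6 and 24.4 in shControl EtOH cells. Without androgen the arrays of both groups overlapped and lay below the array median, so the transcript was read above it with DHT alone. The log2 change with DHT was 3.73 ± 0.07 in shETV1 cells and 4.15 ± 0.07 in shControl cells (SE), and mean intensities were 21.8 and 28.0 times those with EtOH. With DHT the shETV1 arrays all lay below the shControl arrays, with a change of −0.54 ± 0.07, and with EtOH the change was −0.11 ± 0.07.

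In VCaP, LINC00844 was well above the array median in every group. Its intensities were 488, 476 and 414 in siERG DHT cells, 365.5, 352 and 372 in siControl DHT cells, 320.2, 326 and 328 in siERG EtOH cells and 238, 220.1 and 241 in siControl EtOH cells. None of these groups overlapped, and both ERG knockdown and DHT went with higher values. The log2 change with DHT was 0.48 ± 0.06 in siERG cells and 0.61 ± 0.06 in siControl cells, and the siERG minus siControl change was 0.32 ± 0.06 with DHT and 0.45 ± 0.06 with EtOH (SE). With the GAPDH covariate the DHT changes were 0.36 ± 0.13 and 0.65 ± 0.07, and the knockdown changes 0.24 ± 0.10 and 0.53 ± 0.10.

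LINC00920 was read above the array median in VCaP in a single group, siControl cells given DHT. Its intensities were 38.4, 40.5 and 44.9 in siERG DHT cells, 96.5, 129 and 109 in siControl DHT cells, 28.7, 20.7 and 35.8 in siERG EtOH cells and 34.5, 31.1 and 32.0 in siControl EtOH cells. The siControl DHT arrays stood apart from all others, the siERG DHT arrays lay between them and the EtOH arrays, and the EtOH groups overlapped. The log2 change with DHT was 0.38 ± 0.12 in siERG cells and 1.39 ± 0.12 in siControl cells, and the siERG minus siControl change was −1.15 ± 0.12 with DHT and −0.14 ± 0.12 with EtOH (SE). The difference between the DHT changes of siERG and siControl cells was −1.01 ± 0.17, and −0.59 ± 0.32 with the GAPDH covariate. It is given with no test, since the gene passed the filter through the siControl DHT arrays alone. With the covariate the DHT changes were 0.69 ± 0.24 and 1.28 ± 0.14, and the knockdown changes −0.93 ± 0.19 with DHT and −0.34 ± 0.18 with EtOH.

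In LNCaP, LINC00920 values were scattered. They were 67.1, 59.99 and 34.4 in shETV1 DHT cells, 85.3, 52.1 and 77.9 in shControl DHT cells, 34.5, 47.4 and 40.5 in shETV1 EtOH cells and 59.5, 65.6 and 53.2 in shControl EtOH cells. The 3 shETV1 EtOH arrays lay below the 3 shControl EtOH arrays, and every other pair of groups compared overlapped. The log2 changes were 0.27 ± 0.19 and 0.20 ± 0.19 with DHT in shETV1 and shControl cells, and −0.34 ± 0.19 and −0.41 ± 0.19 after ETV1 knockdown with DHT and with EtOH (SE).

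**Figure D1:**
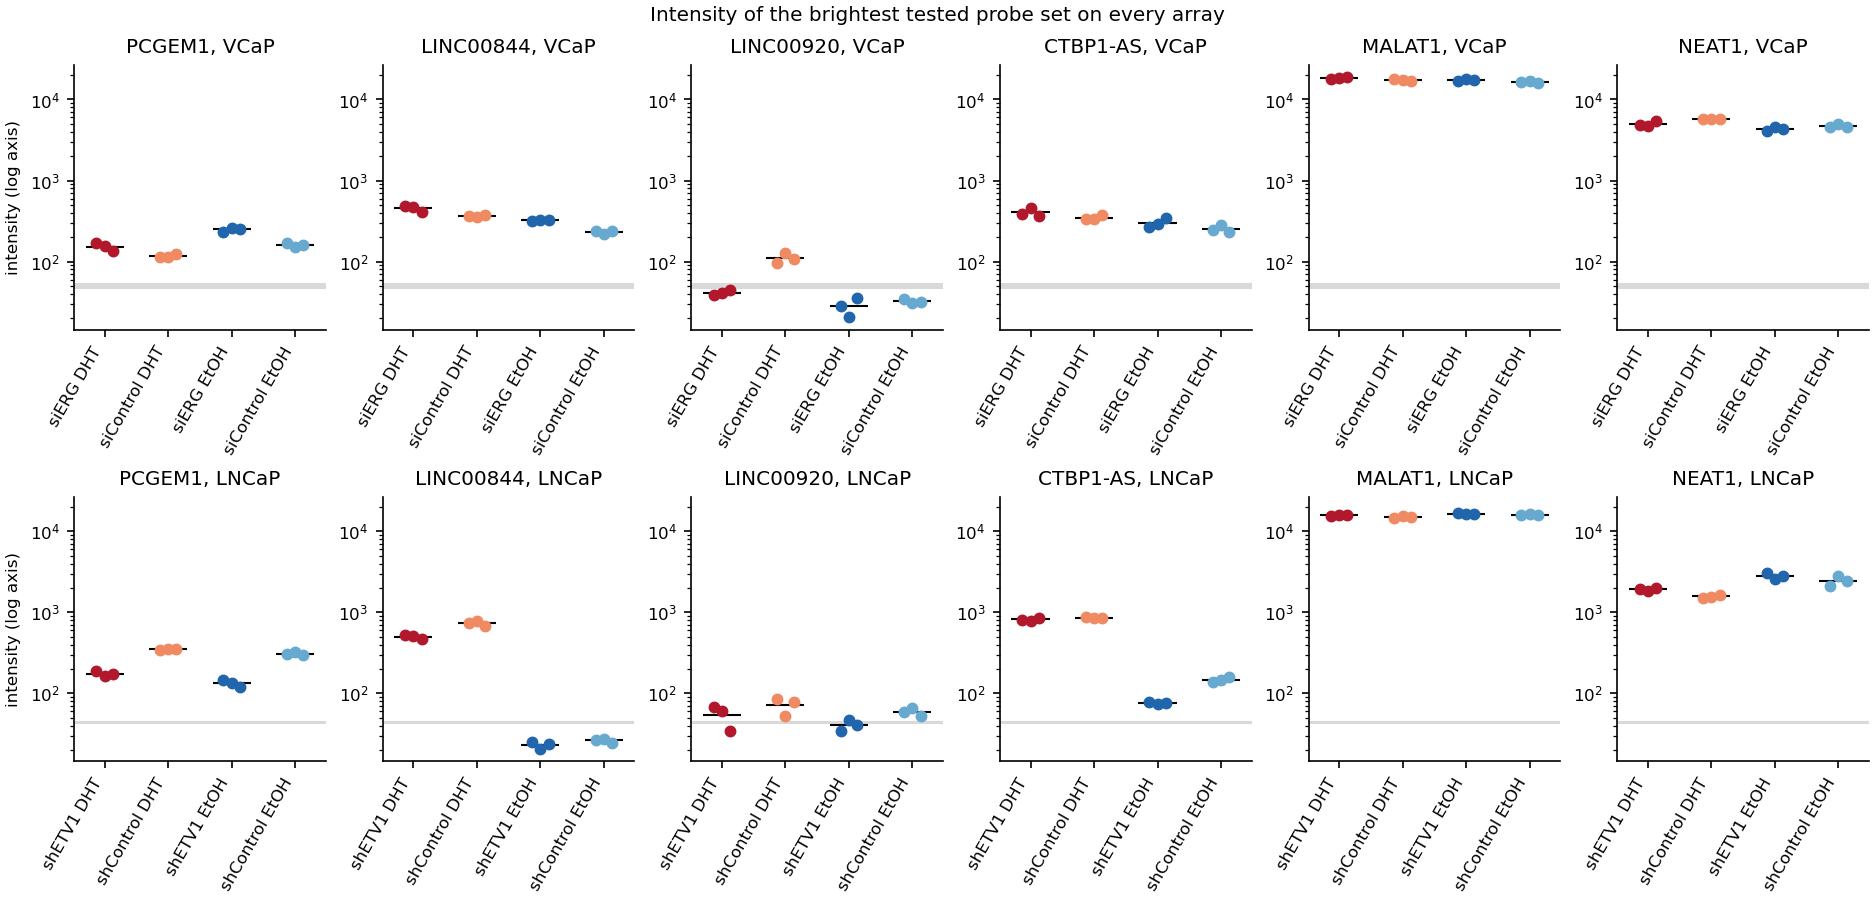
Intensity (log axis) of the brightest tested probe set of each of the 6 genes on all 24 arrays, with each point an array, the bar the group mean, VCaP groups in the upper row and LNCaP groups in the lower row. The LNCaP panels of LINC00844 and CTBP1-AS show the widest gaps between DHT and EtOH, and the LNCaP panel of PCGEM1 splits by shETV1.

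CTBP1-AS was higher with DHT in both lines, and in LNCaP it was lower in shETV1 cells without androgen, with overlapping arrays in its presence. In LNCaP its intensities were 807, 781 and 860.3 in shETV1 DHT cells, 869, 860.2 and 844 in shControl DHT cells, 79.4, 74.7 and 75.5 in shETV1 EtOH cells and 137, 147 and 160.5 in shControl EtOH cells. The DHT arrays of both groups overlapped, whereas every shETV1 EtOH array lay below every shControl EtOH array. The shETV1 minus shControl change was −0.07 ± 0.06 with DHT and −0.82 ± 0.06 with EtOH (SE), and DHT means were 10.7 times the EtOH mean in shETV1 cells and 5.80 times in shControl cells. The DHT change was thus greater in shETV1 cells, 3.17 ± 0.06 against 2.42 ± 0.06 in shControl cells, a difference of 0.75 ± 0.08 that passed the test over all probe sets (limma adjusted p = 0.0138). That call was among 13 of 29388 probe sets, or 0.0442% (0.034% higher and 0.0102% lower). It is a difference of within-line changes, from the same arrays, that were known when the gene was chosen. Its adjusted p is therefore no independent support. The call was lost in 10 of 28 alternatives, 6 of which left out 1 array. Its limma adjusted p was 0.058 without shETV1 EtOH replicate B, 0.0646 without shETV1 EtOH replicate C, 0.0643 without shETV1 DHT replicate A, 0.0645 without shControl EtOH replicate B, 0.0657 without shControl DHT replicate B and 0.0561 without shControl DHT replicate C.

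In VCaP, CTBP1-AS had intensities of 386, 458 and 368 in siERG DHT cells, 337, 339 and 371 in siControl DHT cells, 266, 294 and 341 in siERG EtOH cells and 244, 279.5 and 232 in siControl EtOH cells. DHT and EtOH arrays did not overlap within siERG or within siControl cells, and the knockdown and control arrays overlapped with either treatment. The log2 change with DHT was 0.41 ± 0.11 in siERG cells and 0.45 ± 0.11 in siControl cells, and the knockdown change was 0.20 ± 0.11 with DHT and 0.24 ± 0.11 with EtOH (SE). With the GAPDH covariate the DHT changes were 0.70 ± 0.20 and 0.35 ± 0.12, and the knockdown changes 0.41 ± 0.16 with DHT and 0.05 ± 0.15 with EtOH.

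CTBP1, which overlaps CTBP1-AS in the RefSeq annotation, moved the other way with DHT in LNCaP. Its probe set 212863_x_at had intensities of 1244, 1197 and 1217 in shETV1 DHT cells, 986, 923 and 914 in shControl DHT cells, 3325, 3184 and 3289 in shETV1 EtOH cells and 2947, 3059 and 2446 in shControl EtOH cells. All DHT arrays lay below all EtOH arrays. CTBP1 fell with DHT by 1.41 ± 0.08 in shETV1 cells (limma adjusted p = 1.11e-07) and by 1.56 ± 0.08 in shControl cells (limma adjusted p = 4.51e-08) on the log2 scale. The other bright CTBP1 probe sets, 203392_s_at and 213980_s_at, had changes of −1.71 and −1.78 in shControl cells, and all 3 rose with ETV1 knockdown in DHT, by 0.37 to 0.39 (limma adjusted p = 0.0091 to 0.0226). The fourth, 1557714_at, rose with DHT in LNCaP, by 0.99 ± 0.14 in shETV1 cells and 0.76 ± 0.14 in shControl cells (limma adjusted p = 2.86e-04 and 0.0016), and was dim, with 113 and 116 in shETV1 DHT and shControl DHT cells against 49.6 and 61.6 with EtOH. In VCaP none of the CTBP1 probe sets passed the test for any change, and their DHT changes were −0.05 to 0.13 in siERG cells and −0.11 to 0.16 in siControl cells. Which strand each probe set reads was not given in the sources used here, so CTBP1 and CTBP1-AS signals were assigned by the platform annotation alone.

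**Figure D2:**
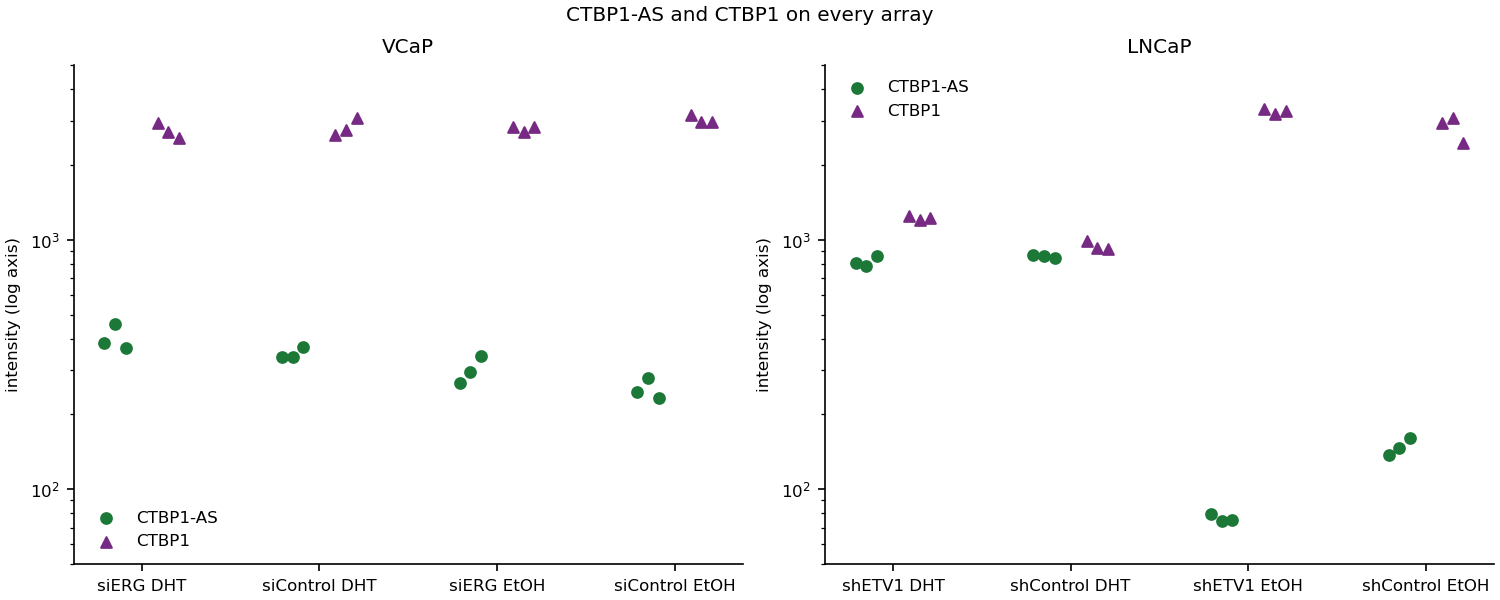
Intensity (log axis) of CTBP1-AS (1563571_at) and CTBP1 (212863_x_at) on each array, by group, in VCaP and LNCaP. In LNCaP, CTBP1-AS is high and CTBP1 low in both DHT groups, with all CTBP1 DHT arrays at or below 1244, and in VCaP all CTBP1 arrays lie between 2543 and 3166.

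The changes after knockdown differed in sign between members and between lines. With DHT, 4 of 25 member probe sets were past the adjusted threshold of 0.05 after ERG knockdown, with PCGEM1 and LINC00844 higher and LINC00920 and NEAT1 234989_at lower, where 6.57% of all probe sets were past it, 2.77% higher and 3.8% lower. Without LINC00920 and NEAT1 220983_s_at, which passed the filter through siControl DHT arrays alone, it was 3 of 23. With EtOH the count was 2 of 25, both higher (PCGEM1 and LINC00844), where 9.12% of all probe sets were past it, 4.83% higher and 4.28% lower. After ETV1 knockdown, 3 of 23 were past it with DHT, with MALAT1 224559_at higher and PCGEM1 and LINC00844 lower (against 4.44% of all, 2.74% higher and 1.7% lower), and 3 of 23 with EtOH, all lower (PCGEM1, CTBP1-AS and MALAT1 223578_x_at, against 2.66% of all, 0.885% higher and 1.78% lower). The members were chosen on these contrasts, so nothing is read from these shares.

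**Figure D3:**
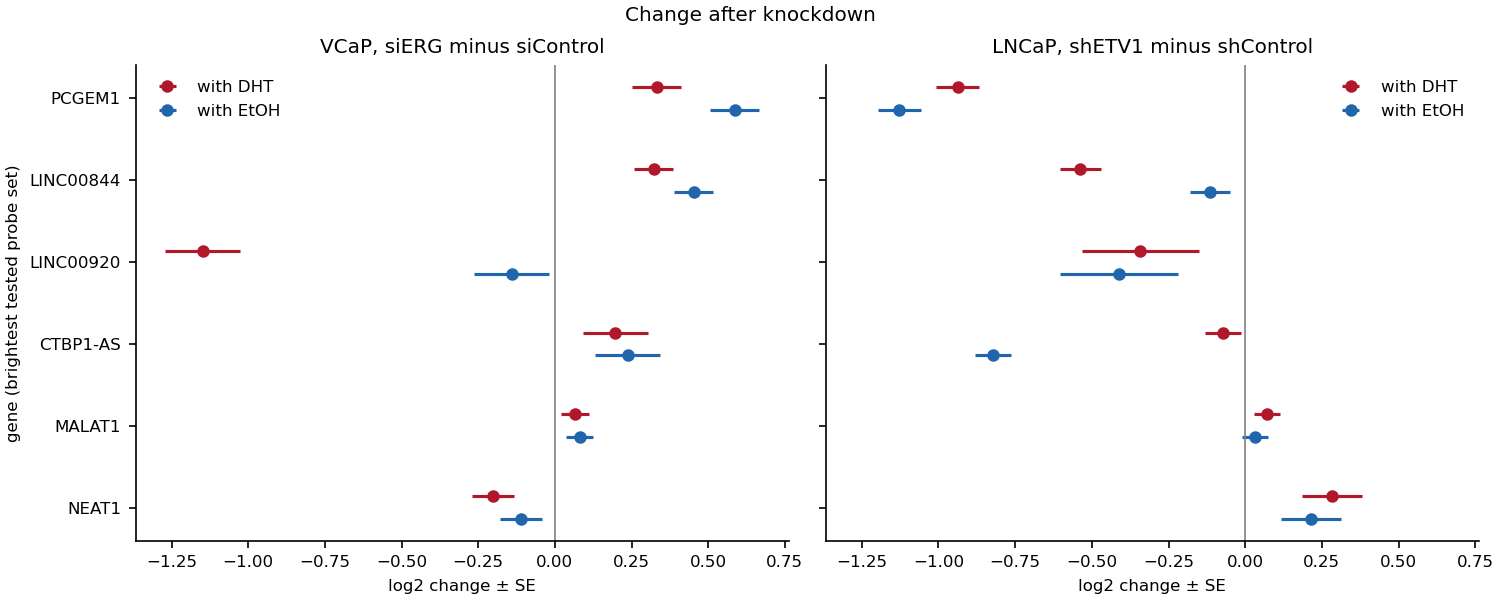
Log2 change ± SE after ERG knockdown in VCaP and after ETV1 knockdown in LNCaP, with DHT and with EtOH, for the brightest tested probe set of each gene, from 3 arrays a group. PCGEM1 lies at 0.33 and 0.59 in VCaP and at −0.94 and −1.13 in LNCaP, and LINC00920 reaches −1.15 in VCaP with DHT.

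NEAT1, the paraspeckle scaffold, was higher with DHT in VCaP and lower with DHT in LNCaP. Its brightest probe set, 224565_at, had intensities of 1942, 1817 and 1979 in shETV1 DHT cells, 1514.5, 1542 and 1649.8 in shControl DHT cells, 3048, 2582 and 2845 in shETV1 EtOH cells and 2092, 2814 and 2427 in shControl EtOH cells. In LNCaP the EtOH groups overlapped and lay above the DHT groups, and among DHT arrays shETV1 lay above shControl. In VCaP the probe set had 4846, 4683 and 5474 in siERG DHT cells, 5722, 5757 and 5753 in siControl DHT cells, 4098, 4638 and 4267 in siERG EtOH cells and 4564, 4925 and 4534 in siControl EtOH cells. There the siControl DHT arrays stood above all others.

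All 7 NEAT1 probe sets tested in LNCaP were lower with DHT in shControl cells, with log2 changes from −0.89 ± 0.15 for 214657_s_at to −0.23 ± 0.17 for 227062_at (SE). Of the 7, 5 were past the threshold (4 of 6 without 214657_s_at), where 36.4% of all probe sets were, 16.7% higher and 19.7% lower. In shETV1 cells the changes ran from −0.66 to 0.18, with 4 past it (3 of 6 without 214657_s_at; 33.5% of all, 17.5% higher and 16.1% lower). With EtOH the knockdown change of 224565_at was 0.21, or −0.02 ± 0.09 with the GAPDH covariate. ETV1 knockdown with DHT went with higher values in all 7, by 0.06 to 0.36, and none was past the threshold. At an unadjusted limma p below 0.05, 10 of the 23 member probe sets were higher and 2 lower. That count covers all 6 genes and has no share of all probe sets beside it, so nothing is read from it.

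In VCaP siControl cells the 7 NEAT1 probe sets other than 220983_s_at and 239269_at were higher with DHT. These 7 were all past the threshold, where 39% of all probe sets were (17.8% higher and 21.2% lower). The size of the change depended on the probe set. It was 0.30 ± 0.07 for 224565_at and 0.28 ± 0.07 for 224566_at, and 0.62 ± 0.09, 0.88 ± 0.12 and 1.23 ± 0.13 for 225239_at, 234989_at and 227062_at (SE). In siERG cells the 7 changes were 0.15 to 0.93, with 5 past the threshold (38.4% of all, 16.9% higher and 21.5% lower). Mean intensities of 227062_at were 814 in siERG DHT cells, 1114 in siControl DHT cells, 424 in siERG EtOH cells and 463 in siControl EtOH cells. NEAT1 is known to be made as a short and a long isoform that share their 5' end, and which isoform each probe set reads was not given in the sources used here. Probe sets 220983_s_at and 239269_at were the dimmest, with means of 30.0 and 35.2 over all arrays, and had DHT changes of 0.58 and 0.63 in siControl cells. With the GAPDH covariate the DHT change of 224565_at was 0.36 ± 0.14 in siERG cells and 0.24 ± 0.08 in siControl cells, in place of 0.20 ± 0.07 and 0.30 ± 0.07.

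With ERG knockdown in DHT, the 8 NEAT1 probe sets other than 220983_s_at were lower. Probe set 234989_at had 2063, 1757 and 2156 in siERG DHT cells against 3214, 2661 and 3121 in siControl DHT cells, and 1237, 1546 and 1180 in siERG EtOH cells against 1608, 1750.0 and 1502 in siControl EtOH cells. Its knockdown change with DHT was −0.59 ± 0.12 (SE), and it was the NEAT1 probe set past the threshold there. The changes of these 8 ran from −0.59 to −0.15 with DHT and from −0.30 to 0.07 with EtOH. The difference between the DHT changes of siERG and siControl cells was negative for the 7 that passed the filter with either treatment, from −0.30 to −0.06, and none passed the test (lowest limma adjusted p = 0.608). With the GAPDH covariate, the change of 224565_at after ERG knockdown with DHT was −0.09 ± 0.11 in place of −0.20 ± 0.07, and with EtOH −0.21 ± 0.10 in place of −0.11 ± 0.07.

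**Figure D4:**
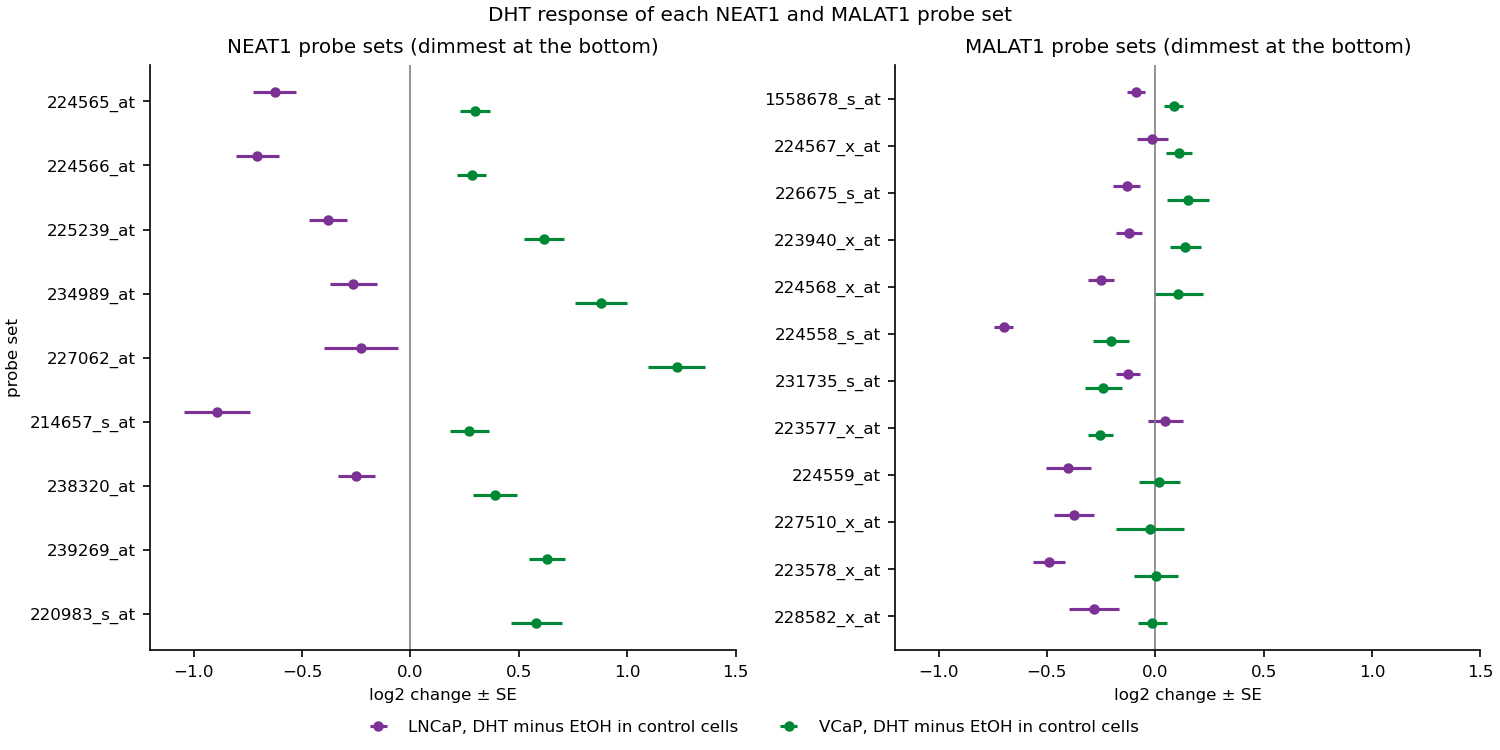
Log2 change ± SE with DHT in control cells for each NEAT1 and MALAT1 probe set, ordered by mean intensity with the dimmest at the bottom, in VCaP siControl and LNCaP shControl cells from 3 arrays a group. NEAT1 probe sets lie above 0 in VCaP, from 0.27 to 1.23, the 2 dimmest having passed the filter through DHT arrays alone, and below 0 in LNCaP, from −0.89 to −0.23; MALAT1 probe sets span −0.25 to 0.15 in VCaP and −0.70 to 0.05 in LNCaP.

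MALAT1, the speckle RNA, was among the brightest signals on every array, and its brightest probe set differed little between groups. Its brightest probe set, 1558678_s_at, lay at a mean percentile of 99.87 or above in each group and had 15515, 15972 and 15809 in shETV1 DHT cells, 14563, 15608 and 14884.5 in shControl DHT cells, 16587, 16108 and 16256 in shETV1 EtOH cells and 15693, 16296 and 15911 in shControl EtOH cells. In VCaP it had 17780, 18203 and 18888.5 in siERG DHT cells, 17960.1, 17427.5 and 17006 in siControl DHT cells, 16839, 17921 and 17493 in siERG EtOH cells and 16585, 16710 and 16111 in siControl EtOH cells. These values lie close to the highest on the arrays, which were 19750 to 20390 in LNCaP and 19349 to 22875 in VCaP, and whether they were saturated was not given in the sources used here. Its log2 changes with knockdown or DHT were 0.07 to 0.08 in VCaP and −0.09 to 0.07 in LNCaP, with SE of 0.05 and 0.04. With the GAPDH covariate the VCaP changes were 0.12 ± 0.07 and 0.04 ± 0.07 after knockdown with DHT and with EtOH, and 0.14 ± 0.09 and 0.06 ± 0.05 with DHT in siERG and siControl cells.

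MALAT1 probe sets disagreed with each other, and 11 of the 12 carry the suffix _x_at or _s_at, which marks probes that may bind related transcripts. In LNCaP shControl cells 11 of 12 were lower with DHT and 5 were past the threshold (36.4% of all probe sets): 224558_s_at at −0.70, 223578_x_at at −0.49, 224559_at at −0.40, 227510_x_at at −0.38 and 224568_x_at at −0.25. Probe set 224558_s_at had 3931, 3863 and 3920 in shETV1 DHT cells, 3484, 3506 and 3572 in shControl DHT cells, 5544, 5554 and 5681 in shETV1 EtOH cells and 5479, 5986 and 5726 in shControl EtOH cells, so every DHT array lay below every EtOH array. In shETV1 cells it was the MALAT1 probe set past the threshold, at −0.52 ± 0.04 (SE). In VCaP, 223577_x_at and 231735_s_at were lower with DHT, by changes of −0.24 and −0.26 in siERG cells and −0.25 and −0.24 in siControl cells, and the other 10 were not past the threshold. The only MALAT1 probe set with the plain suffix _at, 224559_at, had 415, 357 and 357 in shETV1 DHT cells against 256, 294 and 256 in shControl DHT cells, a change of 0.46 ± 0.10.

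The DHT response of LNCaP shControl cells minus that of VCaP siControl cells was tested in a joint fit. It is a difference of within-line changes, from the same arrays, that were known when the genes were chosen. Its adjusted p values are therefore no independent support. The difference was positive for CTBP1-AS (1.97 ± 0.12, limma adjusted p = 3.71e-10) and PCGEM1 (0.58 ± 0.11, limma adjusted p = 3.78e-04) on the log2 scale (SE). It was negative for the 6 NEAT1 probe sets that passed the filter with either treatment in both lines, from −1.46 to −0.64 (limma adjusted p from 3.62e-06 to 0.00125). LINC00844, at 3.55 ± 0.09, and LINC00920, at −1.19 ± 0.24, passed the filter in a line through its DHT arrays alone, and their differences are given with no test. For MALAT1, 6 of 12 probe sets were negative and 1 positive past the threshold, over a range of −0.50 to 0.30, and 1558678_s_at had −0.17 ± 0.06 (adjusted p = 0.027). Of the 20 member probe sets that passed the filter with either treatment in both lines, 15 passed the test. Of all 27820 probe sets 27.7% did, 14.8% positive and 13% negative. The 20 include 12 of MALAT1 and 6 of NEAT1. Probe sets of 1 RNA are not independent, so nothing is read from this share. The deposited values of the lines were on different floors, so levels were not compared between lines. For the interaction of knockdown and DHT, limma called 0 of 25 member probe sets in VCaP (0.017% of all). In LNCaP it called 1 of 23 (0.0442% of all). At an unadjusted limma p below 0.05, 0 were higher and 3 lower in VCaP, and 7 higher and 1 lower in LNCaP. The 25 and 23 include 3 and 2 probe sets that passed the filter with 1 treatment alone.

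By correlation over the 24 arrays, each value taken as its distance from the line's mean, the closest genes were named for each member. These r values describe arrays that share groups and treatments, so they follow the group means. CTBP1-AS ran closest to the androgen-induced protease genes TMPRSS2 (r = 0.987) and KLK2 (r = 0.984) and to C1orf21 (r = 0.984), and LINC00844 to TMCC3 (r = 0.996), APPBP2 (r = 0.995) and OTULINL (r = 0.995). NEAT1 ran closest to the histone methyltransferase gene KMT2C (r = 0.92), to a probe set (221768_at) of the paraspeckle protein gene SFPQ (r = 0.91) and to the nuclear receptor gene NR2C2 (r = 0.90). LINC00920 ran closest to TESC, a calcium-binding protein gene (r = 0.94), CKLF (r = 0.90) and RFPL2 (r = 0.89), and PCGEM1 to DEPDC1 (r = 0.91), RIPOR2 (r = 0.91) and PCDHB5 (r = 0.90). MALAT1 was nearest to APC (r = 0.87), IFRD1 (r = 0.85) and HAPSTR1 (r = 0.85).

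Genes beside the members on their chromosomes were also tested. With DHT, 38.4% of all probe sets were called in siERG, 39% in siControl, 33.5% in shETV1 and 36.4% in shControl cells. Of 20 nearest neighbours that have a probe set and are no members, 12 were tested in VCaP, of which 3 rose and 3 fell with DHT in siERG cells and 4 rose and 2 fell in siControl cells. In LNCaP 10 were tested, of which 4 rose and 1 fell in shETV1 cells and 3 rose and 1 fell in shControl cells. TMEFF2, next to PCGEM1, encodes a membrane protein of the prostate and brain. In VCaP it fell with DHT by 0.68 in siERG cells (limma adjusted p = 8.15e-06) and by 0.62 in siControl cells (limma adjusted p = 1.67e-05) on the log2 scale. In LNCaP it rose, by 0.43 in shETV1 cells (limma adjusted p = 1.6e-05) and by 0.28 in shControl cells (limma adjusted p = 3.79e-04), and with EtOH it fell by 0.31 after ETV1 knockdown (limma adjusted p = 0.00303). PCGEM1 had the same signs in each of these comparisons, though its DHT change of 0.17 in shControl cells was not past the threshold. These comparisons leave out ERG knockdown, and ETV1 knockdown with DHT. With EtOH, PCGEM1 was higher by 0.59 after ERG knockdown. Of the 12 neighbours tested in VCaP, TMEFF2 among them, 0 rose and 1 fell past the threshold there (9.12% of all probe sets were past it). With DHT, 1 rose and 1 fell after ERG knockdown (6.57% of all). Of the 10 tested in LNCaP, 1 rose and 1 fell after ETV1 knockdown with DHT (4.44% of all).
SLC39A10, a zinc transporter gene on the other side of PCGEM1, averaged 2546 with DHT and 836 with EtOH in LNCaP shControl cells, a log2 change of 1.59 ± 0.04 (SE, limma adjusted p = 5.89e-10). FRMD8 and SLC25A45, beside NEAT1, both rose with DHT in VCaP siControl cells, by 0.47 and 0.51 (limma adjusted p = 1.16e-04 and 0.00223). TK2, the thymidine kinase gene near LINC00920, fell after ERG knockdown by 0.43 with DHT and 0.26 with EtOH (limma adjusted p = 0.00534 and 0.0473).

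Other long noncoding RNAs linked to the prostate or to androgens were listed by hand, and 21 of 40 were tested in each line. With DHT, 5 rose and 7 fell in siERG cells, 4 rose and 8 fell in siControl cells, and 4 rose and 4 fell in both shETV1 and shControl cells, beside the same shares of all probe sets. Their median log2 change was −0.15 in siControl cells and −0.02 in shControl cells, where the medians of all probe sets were −0.01 and −0.02. PART1, an androgen-regulated prostate transcript, averaged 679 with DHT and 267 with EtOH in shControl cells (log2 change 1.29 ± 0.08, limma adjusted p = 3.8e-07) and rose by 0.51 ± 0.05 in siControl cells (limma adjusted p = 1.81e-05). It fell after ERG knockdown, by 0.54 with DHT and 0.59 with EtOH (limma adjusted p = 1.76e-04 and 1.32e-04), whereas LINC00844 and PCGEM1 were higher there. DRAIC, known as an androgen-repressed RNA, averaged 310 with DHT and 674 with EtOH in shControl cells (−1.08 ± 0.06, limma adjusted p = 8.28e-08). SNHG16 fell by 0.94 with DHT in siControl cells and rose by 0.26 in shControl cells (limma adjusted p = 9.72e-06 and 0.00683).

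Among 32 other nuclear or widely expressed long noncoding RNAs, 24 were tested in VCaP, of which 3 rose and 8 fell with DHT in siControl cells, and 25 in LNCaP, of which 5 rose and 7 fell in shControl cells, where 39% and 36.4% of all probe sets were called. MIR22HG averaged 584 with DHT and 259 with EtOH in siControl cells (log2 change 1.13 ± 0.07, limma adjusted p = 9.09e-07) and also rose in shControl cells, by 0.96 ± 0.08 (limma adjusted p = 5.44e-06). EPB41L4A-AS1 averaged 1057 with DHT and 2438 with EtOH in siControl cells (−1.19 ± 0.07, limma adjusted p = 6.56e-07), and with EtOH it fell by 0.62 after ERG knockdown (limma adjusted p = 8.18e-04). DLEU2 fell by 1.12 with DHT in shControl cells (limma adjusted p = 1.38e-05).

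Genes for proteins of the nuclear bodies in which NEAT1 and MALAT1 reside were read against the 39% and 36.4% of all probe sets called with DHT in siControl and shControl cells. Of 28 paraspeckle protein genes tested, 11 rose and 6 fell with DHT in VCaP siControl cells and 6 rose and 4 fell in LNCaP shControl cells, with median log2 changes of 0.09 and 0.00. Those are 17 and 10 of 28, the LNCaP share near that of all probe sets. In VCaP the core paraspeckle genes PSPC1 and RBM14 both rose by 0.41 (limma adjusted p = 1.64e-04 and 2.45e-04), while MATR3, an RNA-binding protein of the nuclear matrix, fell by 1.11 (limma adjusted p = 3.49e-06). In LNCaP, SFPQ fell by 0.14 and MATR3 by 0.35 (limma adjusted p = 0.0128 and 5.89e-04). Of 28 nuclear speckle protein genes, 3 rose and 3 fell with DHT in siControl cells and 4 rose and 2 fell in shControl cells, fewer than that share. In siERG cells 8 rose and 2 fell with DHT, where 38.4% of all probe sets were called. In shETV1 cells 5 rose and 2 fell, where 33.5% were. The splicing factor gene SRSF2 rose by 0.49 in shControl cells (limma adjusted p = 3.89e-05), and THRAP3 rose by 0.53 there and fell by 0.30 in siControl cells (limma adjusted p = 1.2e-04 and 0.0227). After knockdown, limma called 0 speckle genes in siERG cells with DHT (2 higher and 1 lower at an unadjusted p below 0.05) and 0 in siERG or shETV1 cells with EtOH (0 higher and 4 lower, and 3 higher and 0 lower, at an unadjusted p below 0.05); CLK4 rose in shETV1 cells with DHT, by 0.29 (limma adjusted p = 0.0297).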

How the data were processed

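The deposited values are linear intensities, 1 per probe set and array; per the labels' protocols total RNA was extracted with Trizol and labelled as biotinylated cRNA, and how the authors scaled the arrays was not given in the sources used here. Every LNCaP array held 605 to 698 values equal to 1 and every VCaP array 6 to 13, so levels were not compared between lines. The 6 genes and all lists were chosen with earlier results of these data known. Probe sets were named from the platform annotation: 41097 of 54675 list 1 gene, 1801 several and 11777 none, and 280 with several were given 1 gene after an enclosed small RNA was dropped (all NEAT1 probe sets also list MIR612). The deposited intensities were put on the log2 scale as log2(intensity + 16). For each line, limma 3.58.1 in R 4.3.3 fitted the 4 groups to probe sets above the array median on at least 3 of 12 arrays (29376 in VCaP, 29388 in LNCaP), with Benjamini-Hochberg adjustment over all of them and a threshold of 0.05; the line difference was fitted on 24 arrays and 27820 probe sets. The fits were tested on simulated data. Lists used the brightest probe set of each gene. Named genes are the members, the 3 genes closest to each by Pearson correlation, members' neighbours (the nearest 2 on each side), and up to 3 risen and 3 fallen list genes with the smallest adjusted p per comparison, of which some are printed; CTBP1 probe sets were added because CTBP1 overlaps CTBP1-AS. The labels call the replicates biological; with 3 arrays a group, their number limits the precision. Alternatives changed the offset, filter, scaling, probe set summary, variance model, arrays, RNA quality covariates, replicate block and single arrays.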

Additional observations from a re-analysis of the deposited data

Results flagged for a closer look

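The DHT response of CTBP1-AS was greater in shETV1 than in shControl LNCaP cells by 0.75 on the log2 scale (limma adjusted p = 0.0138), the interaction of knockdown and DHT being tested directly. The DHT response of the brightest tested probe set of 4 members differed between LNCaP shControl and VCaP siControl cells, by 1.97 for CTBP1-AS, 0.58 for PCGEM1, −0.17 for MALAT1 and −0.92 for NEAT1 (log2, limma adjusted p from 3.71e-10 to 0.027). These tests used the arrays on which the genes had been chosen. They are differences of the within-line changes known at that choice, so they are no independent support. Groups of 3 arrays were too small to be searched for single arrays that stand apart.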

How the results depend on the processing

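A total of 1702 values were recomputed under alternatives for 57 results. Of these, 1621 kept their direction and their side of the threshold or moved by less than the spread between replicates. Of the others, 58 moved, 21 lost the call, 2 gained it and 0 turned a called direction. The 21 and the 2 cover the interactions and the line difference alone. Within-line values that crossed the threshold were counted as kept or moved. After ERG knockdown with DHT, PCGEM1 was past it in 17 of 29 alternatives and LINC00844 in 24 of 29. With DHT in siERG cells, NEAT1 was past it in 15 of 29 and PCGEM1 in 29 of 29. Counts here include members that passed the filter through 1 side of a comparison. The member probe sets past the threshold after ERG knockdown with DHT numbered 4 of 25, but 2 of 26 with no filter, 8 with array weights, 1 at an adjusted p below 0.01, 1 with the 2 groups alone and 0 with the GAPDH ratio as a covariate; leaving out 1 array gave 1 to 5, with 1 without siERG DHT replicate B and 2 without siControl DHT replicate A or C. With EtOH the 2 became 1 with the GAPDH ratio. The VCaP DHT counts were 12 of 25 in siERG cells (7 at an adjusted p below 0.01 and 2 with the GAPDH ratio) and 15 in siControl cells, and became 5 of 6 genes in each with 1 probe set or the mean of probe sets per gene. The LNCaP DHT counts were 8 of 23 in shETV1 cells (4 of 6 genes with 1 probe set and 3 of 6 with the mean) and 12 in shControl cells (3 of 6, 4 of 6, and 7 of 11 without _x_at and _s_at probe sets). After ETV1 knockdown with DHT, 3 became 5 with a trended and robust variance. The line difference, 18 of 23, became 6 of 6 genes either way and 11 of 11 without _x_at and _s_at probe sets. The VCaP interaction, 0 of 25, became 1 with an offset of 64 and 1 of 6 with 1 probe set per gene, in both cases LINC00920, which passed the filter through siControl DHT arrays alone. The LNCaP interaction, 1 of 23, became 0 with no filter, at an adjusted p below 0.01, with the replicate block and with the ACTB ratio, 2 with a trended and robust variance, and 0 to 1 without 1 array; the CTBP1-AS adjusted p was 0.0979 with no filter, 0.0727 with the block and 0.139 with the ACTB ratio. The MALAT1 line difference lost its call in 11 of 39 alternatives, with an adjusted p of 0.107 with no filter and up to 0.0725 without 1 array. Leaving out 1 array gave 2 to 4 and 2 to 3 calls after ETV1 knockdown with DHT and EtOH, and 8 to 12, 13 to 15, 7 to 9 and 11 to 14 with DHT in siERG, siControl, shETV1 and shControl cells. The cause of these shifts was not tested. Deviations of arrays with the same replicate letter correlated at −0.13 to 0.11 in VCaP and −0.16 to 0.08 in LNCaP. For different letters they correlated at −0.10 to 0.11 and −0.09 to 0.17. These values show no strong shift shared by a letter, but they cannot tell whether the letters pair the arrays. With the letter as a block the knockdown counts were 3 and 2 in VCaP and 3 and 2 in LNCaP, for DHT and EtOH.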
